A study of Mus musculus with 12 samples.

Results

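The genes of AMPK, the AMP-activated protein kinase, were followed in ribosome-bound RNA of SF1 cells and in total RNA of the mouse ventromedial nucleus (VMN), a nucleus of the hypothalamus. Prkaa1, Prkaa2, Prkab1, Prkab2, Prkag1 and Prkag2 were taken by symbol after the Ensembl identifiers of the count files had been matched to an annotation, which gave 6 of 46517 genes. Translating ribosome affinity purification (TRAP) tags the ribosomes of chosen cells with GFP and captures them with an antibody, together with the RNA they are translating. Each of 6 pools of 6 animals gave an output library of pulled-down RNA and an input library of the dissected tissue, so there were 3 libraries each of DN output, CTRL output, DN input and CTRL input. All animals were on chow, were fasted overnight and, per the labels, received an adeno-associated virus for the GFP-L10 fusion. DN animals also received a virus for dominant-negative AMPK. The labels of CTRL animals contradict each other: the treatment text names that virus too, whereas the characteristics say that the mutant was absent, and the characteristics were followed. The subunit, species and promoter of the construct, the mouse line, the age of the animals and any second virus in CTRL were not given in the sources used here. Counts do not measure AMPK activity, and they cannot tell construct transcript apart from transcript of the mouse gene.

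AMPK is a trimer that responds to low cellular energy. A catalytic α subunit, encoded by Prkaa1 (α1) or Prkaa2 (α2), is active when a threonine in its activation loop is phosphorylated by LKB1 or CaMKK2. A scaffolding β subunit (Prkab1 for β1, Prkab2 for β2) binds the other subunits and carries a glycogen-binding module, and a γ subunit (Prkag1 for γ1, Prkag2 for γ2) binds AMP, ADP and ATP. In the VMN, AMPK is known for its part in feeding, glucose sensing and thermogenesis.

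The 6 genes lie on 4 chromosomes of GRCm38. Prkaa1 (ENSMUSG00000050697) spans bases 5143861 to 5181899 of the plus strand of chromosome 15 with 4655 exonic bases, and Prkaa2 (ENSMUSG00000028518) spans 105029874 to 105109890 of the minus strand of chromosome 4 with 7969. Prkab1 (ENSMUSG00000029513) spans 116013586 to 116024508 of the minus strand of chromosome 5 with 3066 exonic bases, and Prkab2 (ENSMUSG00000038205) spans 97658193 to 97673812 of the plus strand of chromosome 3 with 5096. Prkag1 (ENSMUSG00000067713) spans 98812797 to 98831521 of the minus strand of chromosome 15 with 2175 exonic bases. Prkag2 (ENSMUSG00000028944) spans 24862744 to 25100642 of the minus strand of chromosome 5 with 6480. Within each class the coding sequences are alike without being interchangeable: 71.2% of aligned coding bases were identical between Prkaa1 and Prkaa2, 73.3% between Prkab1 and Prkab2, and 69.9% between Prkag1 and Prkag2. No stretch of 50 bases was shared between any pair of the 6 genes. The pair of stretches below shows this at the activation loop, the site at which the kinase is switched on. Each holds the threonine codon with 30 bases on either side, lies in exon 5 of its gene and comes from the GENCODE transcripts. The 9 bases that differ are in capitals.
Prkaa1, chr15:5169937-5169999, plus strand: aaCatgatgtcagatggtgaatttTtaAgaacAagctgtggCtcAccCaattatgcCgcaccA
Prkaa2, chr4:105049351-105049413, minus strand: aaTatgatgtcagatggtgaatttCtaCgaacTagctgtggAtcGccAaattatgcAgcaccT

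The γ genes overlap antisense genes, which bears on how their reads could be counted. Of the exonic bases of Prkag1, 950 (43.7%) are shared with B130046B21Rik, and of those of Prkag2, 937 (14.5%) are shared with Prkag2os1 and Prkag2os2. The strand setting of the counting was not given in the sources used here, so reads in these stretches may be missing from the counts or may come from either strand. The antisense genes themselves were close to 0, with 12 counts over the 12 libraries for B130046B21Rik, 10 for Prkag2os1 and 0 for Prkag2os2. Prkag3, the gene of the third γ subunit, had 0 counts in all 12 libraries, which allows up to 3 counts in each.

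The libraries held 34.6 to 55.5 M counts in genes, of which nuclear genes held 26.2 to 32.1 M in outputs and 8.54 to 11.3 M in inputs. The labelled cell type could be checked against markers. Summed over Nr5a1 (the gene of SF1), Fezf1, Slc17a6, Adcyap1 and Gda, VMN neuron markers lay at 1381 to 1860 CPM (reads of a gene per M gene counts, after TMM normalization over the 12 libraries) in DN outputs, 1095 to 1291 in CTRL outputs, 395 to 563 in DN inputs and 402 to 451 in CTRL inputs. In outputs against inputs over the 6 pools, 5 of 5 VMN markers passed as higher (adjusted p under 0.05, edgeR), against 5.28% of all genes. Of GABA neuron markers 3 of 3 passed as lower, of astrocyte markers 6 of 6 and of oligodendrocyte markers 4 of 5. Of the tested microglia markers 3 of 4 passed as lower and of the endothelial markers 1 of 3, against 4.8% of all genes. Every tested marker outside the VMN list had a lower estimate in outputs. Astrocyte markers, whose sum in outputs was mostly Slc1a2, summed to 981 to 1094 CPM in DN outputs, 1475 to 1674 in CTRL outputs, 2643 to 3030 in DN inputs and 2598 to 3161 in CTRL inputs. GABA neuron markers, mostly Gad2, summed to 674 to 775 CPM in DN inputs and 622 to 804 in CTRL inputs, above the VMN neuron markers there. In outputs they summed to 196.5 to 221 CPM in DN and 242 to 307 in CTRL. How far the dissected tissue reached beyond the VMN was not tested. No marker was at 0 in a whole group, so RNA of other cells was still present in outputs.

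Per kb of merged exons, the catalytic genes had the highest mean levels in every group. In CPM per kb of exon, the means were 11.5 for Prkaa2, 5.78 for Prkaa1, 3.40 for Prkab2, 2.03 for Prkag2, 0.551 for Prkab1 and 0.139 for Prkag1 in DN outputs. In CTRL outputs they were 10.7 for Prkaa2, 7.44 for Prkaa1, 3.32 for Prkab2, 0.640 for Prkag2, 0.410 for Prkag1 and 0.357 for Prkab1. In that order the libraries of Prkaa2, Prkaa1 and Prkab2 did not overlap in CTRL outputs, while those of Prkag2, Prkag1 and Prkab1 did. In DN outputs Prkaa1 and Prkab2 overlapped, as did Prkab2 and Prkag2, and Prkab1 and Prkag1. Inputs put Prkaa1 at 11.4 and Prkaa2 at 6.34 in DN and at 8.59 and 8.82 in CTRL, and the libraries of both genes overlapped in each. Below them in inputs came Prkab2 (2.61 in DN, 2.43 in CTRL), apart from every α library and from every library of the lower 3 genes, except that it was apart from Prkab1 in CTRL only narrowly (at least 2.21 against at most 2.08). Prkab1, Prkag2 and Prkag1 had 0.749, 0.730 and 0.623 in DN inputs and overlapped. In CTRL inputs they had 1.16, 0.967 and 0.499, where Prkag2 and Prkag1 did not overlap. The order depends on the length used. Per kb of coding sequence, an alternative added after seeing the data, Prkab2 averaged 21.3 in DN outputs and 20.8 in CTRL outputs, and Prkaa1 averaged 16.0 in DN outputs and 20.65 in CTRL outputs, with overlapping libraries in both groups.

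Summed by class on the same scale, the α genes had 17.25 ± 2.96 in DN outputs, 18.2 ± 2.13 in CTRL outputs, 17.8 ± 6.79 in DN inputs and 17.4 ± 1.90 in CTRL inputs (SD, n = 3 libraries each, as for all group values). The β genes had 3.95 ± 1.11 in DN outputs, 3.68 ± 1.26 in CTRL outputs, 3.36 ± 1.18 in DN inputs and 3.60 ± 0.724 in CTRL inputs. The γ genes had 2.17 ± 0.270 in DN outputs, 1.05 ± 0.241 in CTRL outputs, 1.35 ± 0.591 in DN inputs and 1.47 ± 0.257 in CTRL inputs. The α and β sums overlapped between all groups. The γ sum of every DN output (1.86 to 2.37) lay above that of every CTRL output (0.818 to 1.299). Of the γ genes, Prkag2 had the higher mean in DN outputs (2.03, against 0.64 in CTRL outputs). Prkag1 had the lower mean there (0.14, against 0.41 in CTRL outputs). Of single genes tested, 5.17% had every DN output above every CTRL output.

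**Figure D1:**
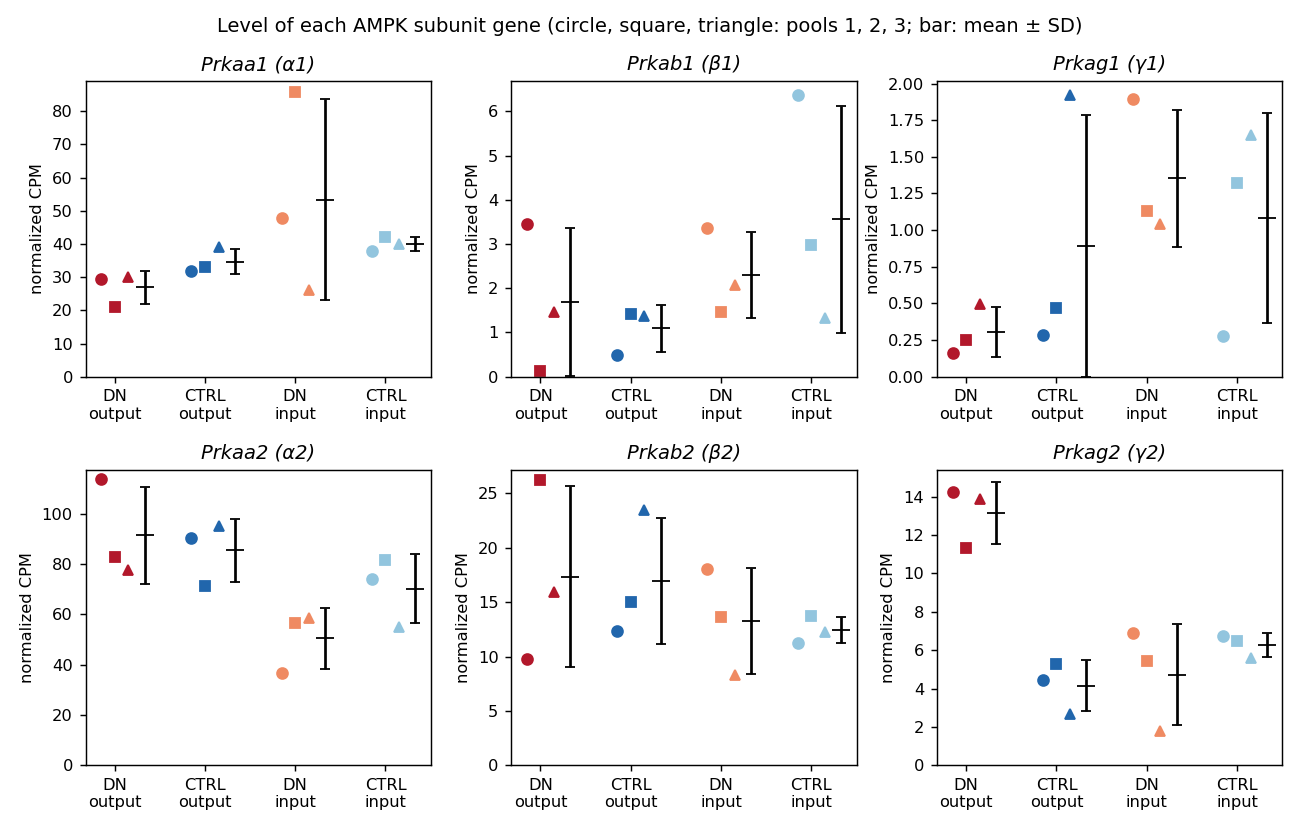
Normalized CPM (y axis, linear, own scale per gene) of the 6 AMPK subunit genes in DN output, CTRL output, DN input and CTRL input libraries. Circles, squares and triangles are pools 1, 2 and 3, bars are mean ± SD of 3 libraries. The 3 DN outputs hold the highest Prkag2 levels of the 12 libraries, at 11.3 to 14.3 CPM.

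The first question was which catalytic subunit the ribosomes of SF1 cells carried relative to the tissue. Prkaa2 (α2), higher in outputs, alone of the 6 subunit genes passed over all 6 pools (1 of 6), against 10.1% of all genes tested. Its level was 114, 82.7 and 77.9 CPM in DN outputs of pools 1, 2 and 3, against 36.7, 56.6 and 58.4 CPM in the DN inputs of the same pools. It was 90.3, 71.4 and 95.02 CPM in CTRL outputs, against 74.1, 81.6 and 55.1 CPM in CTRL inputs. Outputs were higher in 5 of 6 pools, with CTRL pool 2 as the exception, and DN outputs did not overlap DN inputs while CTRL outputs overlapped CTRL inputs. Over all 6 pools together, 0 of 6 subunit genes had outputs and inputs that did not overlap, against 6.14% of all genes. Over the 6 pools the log2 fold change was 0.57 ± 0.17 (SE; 95% interval 0.21 to 0.93; adjusted p = 0.0444, edgeR). In DN pools alone the fold change was 0.84 ± 0.27 (adjusted p = 0.124, edgeR). In CTRL pools alone it was 0.28 ± 0.21 (95% interval -0.18 to 0.73, adjusted p = 0.564, edgeR), and 0.054 without CTRL pool 3. The call over the 6 pools ended with the pool as a block (adjusted p = 0.0768, edgeR) and with DESeq2 size factors in edgeR (0.0636). It also ended without DN pool 1 (0.17) or 2 (0.0578) and without CTRL pool 1 (0.138), 2 (0.0572) or 3 (0.187), and passed with DESeq2 (0.0232, where 15.8% of all genes passed). In bulk RNA, a different number of cells of a type and a different amount of RNA per cell cannot be told apart. The marker sums of VMN neurons and other cells moved between outputs and inputs as given above, and their part in this result was not tested. DN animals also received a virus for dominant-negative AMPK, of a subunit that was not given. The part of its transcript in the Prkaa2 counts was not tested.

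Prkaa1, the α1 gene, was lower in the output of 5 of 6 pools and did not pass. It had 29.4, 21.1 and 30.2 CPM in DN outputs, against 48.0, 85.9 and 26.0 CPM in DN inputs. It had 31.9, 33.0 and 39.0 CPM in CTRL outputs, against 37.8, 42.1 and 39.9 CPM in CTRL inputs. DN input of pool 2 stood far above the other libraries, and CTRL outputs lay below CTRL inputs apart from CTRL output 3, which exceeded CTRL input 1. The log2 fold change over the 6 pools was -0.60 ± 0.24 (adjusted p = 0.141, edgeR). It was -0.26 without DN pool 2, and -0.81 with adjusted p = 0.0408 (edgeR) without DN pool 3.

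The balance of both catalytic genes, which needs no library scaling, leaned to α2 in the outputs of every pool. Per exon length, Prkaa1 made up 30.7%, 30.4% and 39.9% of the α sum in DN outputs, against 69.1%, 72.2% and 43.2% in DN inputs. It made up 37.7%, 44.2% and 41.3% in CTRL outputs, against 46.6%, 46.9% and 55.4% in CTRL inputs. The highest share in an output was 44.2%, and of the 6 inputs that of DN pool 3 alone lay below it. The log2 ratio of Prkaa1 to Prkaa2 counts was lower in outputs by 1.10 on average (difference -1.10, SD 1.08 over 6 pools, lower in 6 of 6, from -2.57 to -0.16). The exact paired permutation test, two-sided, gave p = 0.031, the smallest it can give with 6 pools, and 0.0938 adjusted over the 3 subunit ratios. The unpaired exact permutation test gave p = 0.00433 (adjusted 0.0130), but it ignores that output and input of a number come from 1 pool. DN pools 1 and 2 contributed the largest shifts (-2.34 and -2.57), while DN pool 3 was at -0.20. The CTRL pools were at -0.53, -0.16 and -0.82. The mean shift was -1.70 in DN pools and -0.50 in CTRL pools. Counts cannot tell transcript of the construct in DN animals from that of the mouse genes, and its part in this ratio was not tested.

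**Figure D2:**
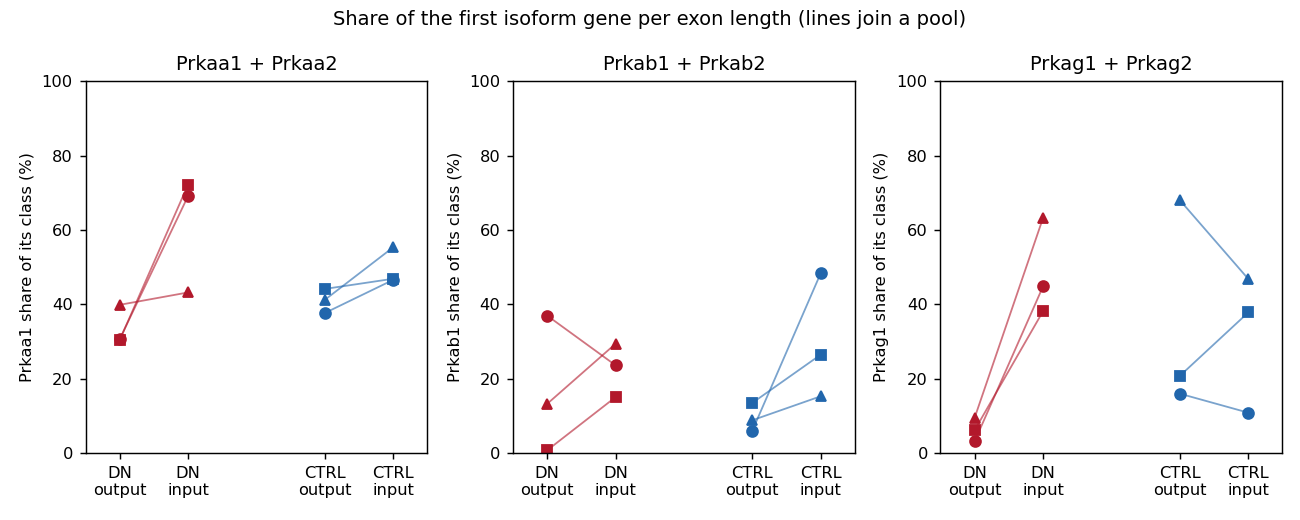
Share in percent (y axis) of Prkaa1, Prkab1 and Prkag1 in the sum of the 2 genes of their class, as CPM per kb of exon, for DN (red) and CTRL (blue) pools. Circles, squares and triangles are pools 1, 2 and 3, and lines join the output and input library of a pool. The Prkaa1 share is lower in the output of all 6 pools, and the Prkag1 share is lower in the output of all 3 DN pools.

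Of the scaffold genes, Prkab2 (β2) carried most of the class, per exon length, in all 12 libraries. It had 9.80, 26.3 and 15.9 CPM in DN outputs, against 17.99, 13.6 and 8.28 CPM in DN inputs. It had 12.3, 14.99 and 23.4 CPM in CTRL outputs, against 11.3, 13.7 and 12.3 CPM in CTRL inputs. Outputs and inputs overlapped in DN and in CTRL, and outputs were higher in 5 of 6 pools. The log2 fold change over the 6 pools was 0.41 ± 0.32 (adjusted p = 0.477, edgeR). Prkab1 (β1) had low counts. It had 3.46, 0.134 and 1.47 CPM in DN outputs, against 3.35, 1.46 and 2.08 CPM in DN inputs, and DN output 2 rested on 9 counts. It had 0.485, 1.42 and 1.38 CPM in CTRL outputs, against 6.37, 2.97 and 1.34 CPM in CTRL inputs. Values varied many-fold within groups, and the fold change of -1.07 ± 0.79 on the log2 scale did not pass (adjusted p = 0.445, edgeR; -0.53 without CTRL pool 1).

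The Prkab1 share of the β sum was 17.05% ± 18.4 in DN outputs, 9.54% ± 3.75 in CTRL outputs, 22.7% ± 7.21 in DN inputs and 30.1% ± 16.8 in CTRL inputs. The log2 ratio of Prkab1 to Prkab2 counts was lower in outputs in 5 of 6 pools, by -1.81 on average (SD 1.98), with p = 0.0938 by the exact paired permutation test (adjusted 0.141). DN pool 1 was the exception at 0.92.

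Prkag2, the γ2 gene, was the subunit gene whose outputs and inputs lay apart both in DN and in CTRL, in opposite directions, although no fit called it by edgeR. Its level was 14.3, 11.3 and 13.9 CPM in DN outputs, against 6.92, 5.46 and 1.80 CPM in DN inputs. It had 4.45, 5.29 and 2.69 CPM in CTRL outputs, against 6.75, 6.48 and 5.58 CPM in CTRL inputs. Every DN output lay above every DN input, as in 11.6% of all genes tested. Every CTRL output lay below every CTRL input, as in 11.2% of all genes tested. The share of genes with both was not computed. Output minus input within a pool was 1.04, 1.05 and 2.95 on the log2 scale in DN pools 1, 2 and 3, and -0.60, -0.29 and -1.05 in CTRL pools 1, 2 and 3. In the fits within each group the fold change was 1.47 ± 0.67 in DN (adjusted p = 0.316, edgeR) and -0.61 ± 0.58 in CTRL (adjusted p = 0.672, edgeR). Over all 6 pools, where these opposite directions are averaged, it was 0.44 ± 0.41 (adjusted p = 0.569, edgeR).

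Prkag1 (γ1) rested on 8 to 117 counts a library. It had 0.162, 0.253 and 0.495 CPM in DN outputs, against 1.89, 1.13 and 1.04 CPM in DN inputs. It had 0.285, 0.467 and 1.92 CPM in CTRL outputs, against 0.278, 1.32 and 1.65 CPM in CTRL inputs. All DN outputs were below all DN inputs, while in CTRL the groups overlapped. The log2 fold change in DN was -2.15 ± 1.31 (adjusted p = 0.482, edgeR) and in CTRL -0.30 ± 1.23 (adjusted p = 0.943, edgeR). The Prkag1 share of the γ sum was 6.37% ± 3.16 in DN outputs, 34.95% ± 28.7 in CTRL outputs, 48.8% ± 13.0 in DN inputs and 31.9% ± 18.7 in CTRL inputs. CTRL output 3 held 68.0% and set the wide spread of its group. The log2 ratio of Prkag1 to Prkag2 counts differed, as output minus input, by -4.59, -3.21 and -4.02 in DN pools and by 0.64, -1.21 and 1.27 in CTRL pools. Over the 6 pools the mean difference was -1.85 (exact paired permutation test p = 0.188, adjusted 0.188), and whether it differs between DN and CTRL pools was not tested.

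**Figure D3:**
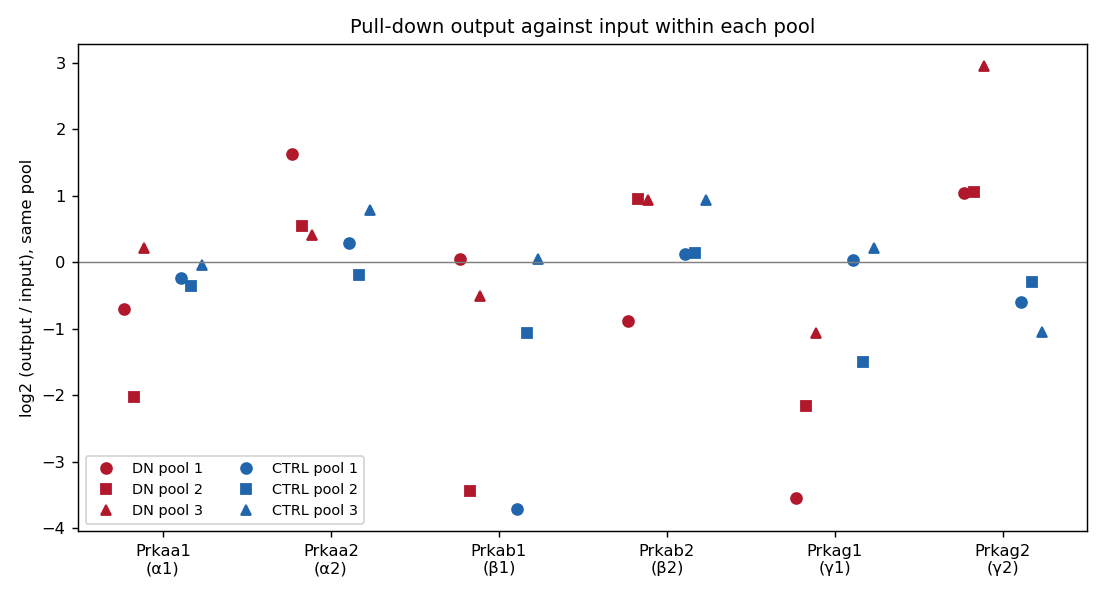
Log2 ratio of output to input within each pool (y axis) for the 6 AMPK subunit genes (x axis), with DN pools in red and CTRL pools in blue and circles, squares and triangles for pools 1, 2 and 3. Prkag2 lies above 0 in all 3 DN pools and below 0 in all 3 CTRL pools, and Prkaa2 lies above 0 in 5 of 6 pools.

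Within each group of pools on its own, no subunit gene passed. In DN, 0 of 6 passed by edgeR, where 3.38% of all genes did, and 0 by DESeq2, against 8.63% of all genes. There 3 of 6 had an unadjusted p under 0.05, against 15.65% of all genes, and in 3 of 6 the outputs and inputs did not overlap (Prkaa2 and Prkag2 higher, Prkag1 lower), against 22.5% of all genes. Prkaa2 was at 0.84 ± 0.27 in DN (adjusted p = 0.124, edgeR), and at 0.48 without DN pool 1. Prkaa1 was at -0.995 ± 0.411 in DN (adjusted p = 0.257, edgeR), and at -0.32 without DN pool 2. In CTRL, 0 of 6 passed by edgeR, where 3.2% of all genes did. By DESeq2 0 passed, against 8.71% of all genes, and 0 had an unadjusted p under 0.05, against 16.35% of all genes. Of the 6, Prkag2 alone had outputs and inputs apart, against 23.2% of all genes. Prkab1 was at -1.71 ± 0.94 in CTRL (adjusted p = 0.410, edgeR), and at -0.63 without CTRL pool 1.

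The second question, named in the title of the series, was what differed in ribosome-bound RNA with dominant-negative AMPK. Of the 6 subunit genes, 0 passed by edgeR and 0 by DESeq2 on the same genes, and 1 had an unadjusted p under 0.05. This was Prkag2, which had the largest estimate. Its mean was 13.2 ± 1.60 CPM in DN outputs and 4.15 ± 1.33 CPM in CTRL outputs, and the lowest DN output (11.3) exceeded the highest CTRL output (5.29). The log2 fold change was 1.66 ± 0.56 (95% interval 0.44 to 2.89; unadjusted p = 0.0121, adjusted p = 0.910, edgeR). Of 13333 genes 0 passed in this comparison by edgeR (0%), 721 had an unadjusted p under 0.05 (5.41%), and DESeq2 called 58 (0.435%), with Prkag2 at adjusted p = 0.154. With DESeq2 and no filter on low counts, an alternative added after seeing the data, Prkag2 passed (adjusted p = 0.00846) among 169 genes called (0.818%). Over all alternatives the fold change stayed between 1.43 and 1.88 and the adjusted p ranged from 0.00846 to 1.

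The summed levels of 3 of the 6 marker lists lay apart between the same libraries, and 1 or a few abundant genes carried each sum. The VMN neuron sum was 1381 to 1860 CPM in DN outputs and 1095 to 1291 in CTRL outputs. Most of it was Slc17a6 (mean 839 CPM in DN outputs, 665 in CTRL outputs), while Nr5a1 had 22.4 CPM in DN outputs and 22.7 in CTRL outputs, and 4 of 5 estimates were positive. The astrocyte sum was 981 to 1094 CPM in DN outputs and 1475 to 1674 in CTRL outputs. Slc1a2 (915 CPM in DN outputs, 1414 in CTRL outputs) accounted for most of it, while 3 of the 5 tested estimates were positive, with Aqp4 at 84.6 CPM in DN outputs and 86.3 in CTRL outputs and Slc1a3 at 36.7 CPM in DN outputs and 33.8 in CTRL outputs. The GABA neuron sum was 196.5 to 221 CPM in DN outputs and 242 to 307 in CTRL outputs. It was mostly Gad2 (189 CPM in DN outputs, 238 in CTRL outputs), while Slc32a1 had 3.15 CPM in DN outputs and 1.90 in CTRL outputs, and 1 of 3 estimates was positive. Oligodendrocyte markers summed to 157 to 242 CPM in DN outputs and 185 to 340 in CTRL outputs, microglia markers to 1.505 to 9.44 CPM in DN outputs and 4.17 to 11.7 in CTRL outputs, and endothelial markers to 4.72 to 5.19 CPM in DN outputs and 2.496 to 6.12 in CTRL outputs. No marker of the 6 lists passed between these groups by edgeR. The part of these differences in the Prkag2 result was not tested, nor was that of a second virus.

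The other 5 subunit genes gave smaller or less certain estimates in the same comparison. Prkaa1 had 26.9 ± 5.01 CPM in DN outputs and 34.6 ± 3.79 CPM in CTRL outputs, with every DN output (at most 30.2) below every CTRL output (at least 31.9), and a log2 fold change of -0.37 (95% interval -1.04 to 0.31). In all, 2 of 6 genes had groups that did not overlap, against 11% of all genes tested. Prkaa2, at 91.4 ± 19.45 CPM in DN outputs and 85.6 ± 12.5 CPM in CTRL outputs, had an interval from -0.39 to 0.58. Prkab2, at 17.3 ± 8.32 CPM in DN outputs and 16.9 ± 5.80 CPM in CTRL outputs, had one from -1.01 to 1.07. For Prkab1 (-2.21 to 3.46) and Prkag1 (-4.64 to 1.55) the intervals were wide. Of the isoform ratios, that of Prkag1 to Prkag2 was lower in DN outputs by 2.93 (-5.58 in DN outputs, -2.65 in CTRL outputs; exact permutation test, two-sided, p = 0.1, the smallest that 3 against 3 can give, adjusted 0.3), and by 1.85 without CTRL pool 3 (difference -1.85). Those of Prkaa1 to Prkaa2 (-0.46, p = 0.2, exact permutation test) and of Prkab1 to Prkab2 (-0.13, p = 0.9, exact permutation test) overlapped between the groups.

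**Figure D4:**
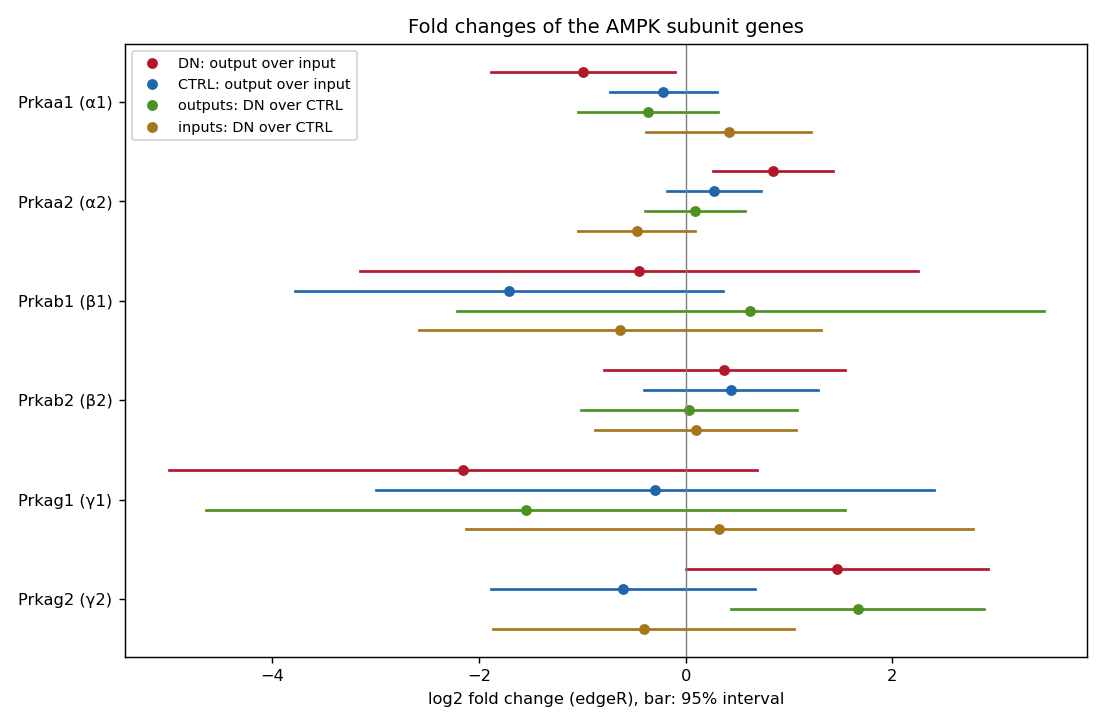
Log2 fold changes (x axis; points) with 95% intervals (bars) of the 6 AMPK subunit genes from edgeR, for output over input in DN and in CTRL and for DN over CTRL in outputs and in inputs. The interval of Prkag2 for DN over CTRL in outputs runs from 0.44 to 2.89, and that of Prkag1 in each comparison spans 0.

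In the tissue before the pull-down, 0 of 6 subunit genes passed between DN and CTRL inputs, where 1 of 13221 genes did (0.00756%). By DESeq2 0 passed, against 0.0151% of all genes, 0 had an unadjusted p under 0.05, against 4.455% of all genes, and 0 of 6 had groups that did not overlap, against 10.5% of all genes. Prkag2 had 4.73 ± 2.64 CPM in DN inputs and 6.27 ± 0.614 CPM in CTRL inputs (log2 fold change -0.41, 95% interval -1.87 to 1.05), so the higher Prkag2 level of DN outputs was not seen in DN inputs. Prkaa2 had 50.55 ± 12.1 CPM in DN inputs and 70.3 ± 13.7 CPM in CTRL inputs (-0.47, interval -1.04 to 0.09). Prkaa1 had 53.3 ± 30.3 CPM in DN inputs and 40.0 ± 2.16 CPM in CTRL inputs (0.42, interval -0.38 to 1.21), and the estimate was -0.12 without DN pool 2. The isoform ratios differed by 0.74 for the α genes, -0.47 for the β genes and 1.24 for the γ genes (exact permutation tests, p = 0.4, 0.6 and 0.4). That of the γ genes was 0.38 without CTRL pool 1, that of the α genes was 1.29 without DN pool 3 and 0.41 without DN pool 2, and that of the β genes ran from -1.03 to 0.15 without 1 library.

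Whether the pull-down enriched a subunit differently in DN and CTRL pools was tested as the difference of both effects in a fit of all 12 libraries. Of the 6, Prkag2 had the largest difference, 2.07 ± 0.83 on the log2 scale (95% interval 0.32 to 3.83; unadjusted p = 0.0236), which did not pass over all genes (adjusted p = 0.738, edgeR; range over the alternatives 0.128 to 1). Of the 6 subunit genes and of all 15011 genes 0 passed by edgeR (0%), 933 had an unadjusted p under 0.05 (6.215%) and DESeq2 called 91 (0.606%), none of them a subunit gene. The other 5 differences ranged from -1.87 ± 1.84 for Prkag1 to 1.26 ± 1.56 for Prkab1, with unadjusted p from 0.114 for Prkaa2 to 0.921 for Prkab2. Prkag1 was at -1.06 without CTRL pool 3, and Prkab1 at 0.18 without CTRL pool 1.

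RefSeq gives 3 start windows for Prkag2 and 1 for each other subunit gene, and the 250 bases before each start were searched for the monomer motif of NR5A1 (SF1), AAGGTCA, on both strands. The motif was chosen after the values were known. It was found in 1 of 8 windows of the 6 genes, and in 4.08% of all 32851 such windows. The window with the match is 1 of the 3 of Prkag2, the gene with the most windows. It is shown with the match in capitals as its reverse complement, 43 bases before the start. It comes from RefSeq on GRCm38.p6, where all 6 genes were matched. Counts per gene do not tell which start the reads came from, and a match of letters is no evidence of binding.
Prkag2, chr5:24995754-24996003, minus strand: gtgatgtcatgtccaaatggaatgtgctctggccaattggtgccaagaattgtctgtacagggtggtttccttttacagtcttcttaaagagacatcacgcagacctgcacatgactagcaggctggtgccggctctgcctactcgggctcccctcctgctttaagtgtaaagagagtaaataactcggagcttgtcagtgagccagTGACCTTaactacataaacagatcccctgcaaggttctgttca

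Genes that act with AMPK were read from the same fits, 27 in all: 8 upstream kinases and their partners, 3 regulators that bind AMPK, 15 substrates and Prkag3. Over the 6 pools 26 were tested, of which 0 were higher and 1 was lower in outputs, against 5.28% of all genes higher and 4.8% lower. The 1 gene was Srebf1, a transcription factor of lipid synthesis that AMPK phosphorylates. It had 0.044, 0.134 and 0.948 CPM in DN outputs, against 6.53, 5.10 and 2.04 CPM in DN inputs. It had 0.014, 0.934 and 0.427 CPM in CTRL outputs, against 5.22, 6.59 and 11.6 CPM in CTRL inputs. No output reached the lowest input, and the log2 fold change was -3.84 ± 0.91 (adjusted p = 0.0130, edgeR). Its size rests on low counts: 81 over the 3 DN outputs and 87 over the 3 CTRL outputs. The DN inputs held 360 and the CTRL inputs 594. The median of the 26 was 0.16, against -0.01 for all genes tested. The upstream kinases Stk11 (LKB1) and Camkk2 were among those that did not pass.

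Between DN and CTRL outputs 0 of 26 pathway genes tested passed by edgeR or DESeq2, 18 estimates were positive and 8 negative, and the median was 0.16 against 0.01 for all genes. The smallest p values belonged to Cab39l, a scaffold of the LKB1 complex (1.19 ± 0.57, unadjusted p = 0.0602, adjusted p = 0.911, edgeR), and to Pfkfb2 and Pfkfb3, enzymes that make the glycolytic activator fructose 2,6-bisphosphate (-1.23 ± 0.62 and -0.81 ± 0.46, adjusted p = 0.925 and 0.948, edgeR). Between inputs 0 of 26 passed by edgeR or DESeq2, and the smallest p values were those of Foxo3, Acacb and Mff. Their estimates were -1.27 ± 0.38, -3.26 ± 1.47 and 0.50 ± 0.24 (adjusted p = 0.997 each, edgeR). The first 2 had an unadjusted p under 0.05 (edgeR), as did 4.455% of all genes. Acacb rested on 9 counts over the 3 DN inputs and 88 over the 3 CTRL inputs. Foxo3 is a transcription factor, Acacb makes malonyl-CoA at mitochondria and Mff is a receptor for mitochondrial fission. Within DN pools Srebf1, Pfkfb2 and Fnip2 came first (-3.59 ± 1.36, -1.62 ± 0.68 and 0.95 ± 0.53), and within CTRL pools Srebf1, Mff and Rptor (-4.10 ± 1.13, 0.57 ± 0.17 and 1.04 ± 0.39), none past the threshold by edgeR (adjusted p from 0.0807 to 0.436). In the difference of both effects Foxo3, Pfkfb2 and Rptor came first (1.28 ± 0.53, -2.16 ± 0.97 and -0.88 ± 0.54, adjusted p from 0.747 to 0.858, edgeR).

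**Figure D5:**
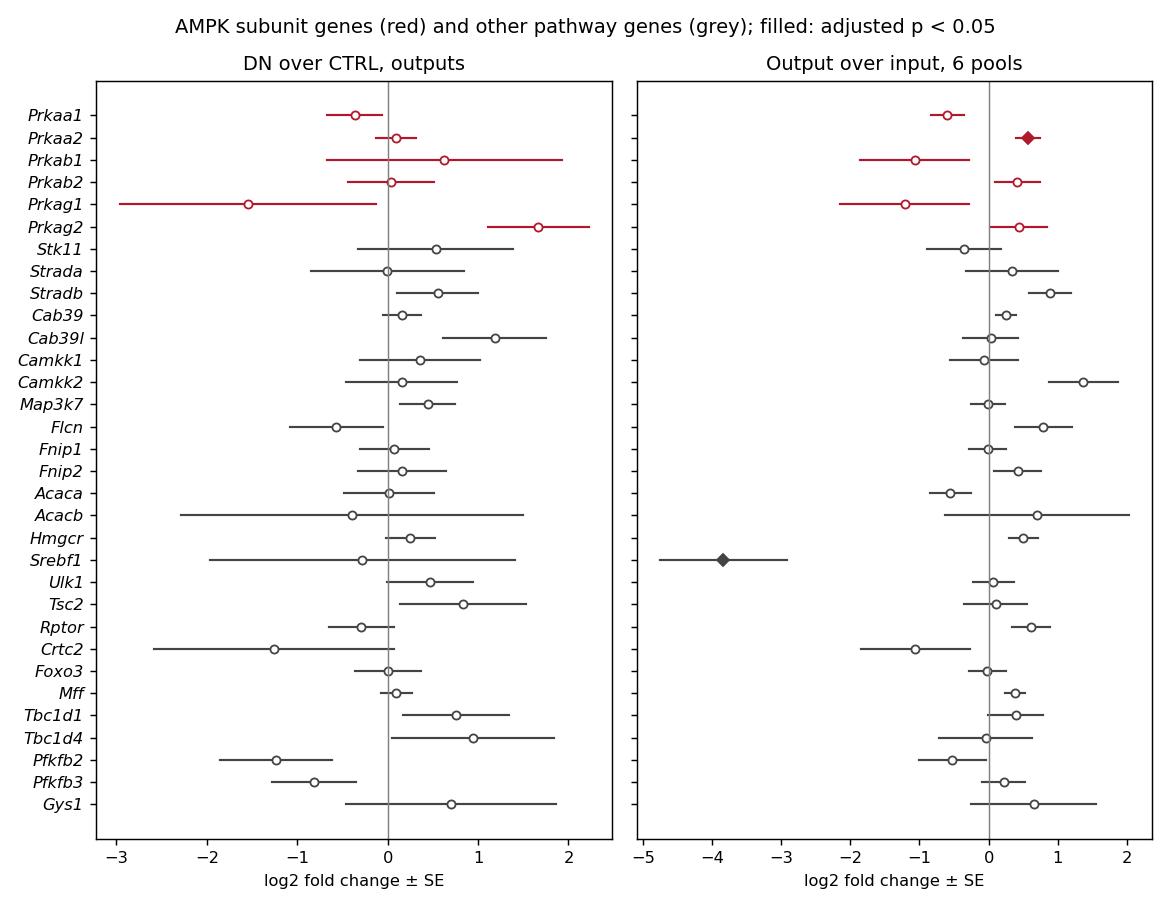
Log2 fold changes ± SE (x axis) from edgeR of the 6 AMPK subunit genes (red) and of 26 other AMPK pathway genes (grey), for DN over CTRL in outputs and for output over input in the 6 pools. Filled diamonds passed at an adjusted p under 0.05, which only Prkaa2 and Srebf1 did, both in output over input.

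As a description of which genes had a like pattern over the 12 libraries, log2(CPM + 1) of each subunit gene was set against 7715 protein-coding genes with a mean of at least 5 CPM. The 12 libraries come from 6 pools and share depth and the split into outputs and inputs, so Pearson's r is given without a test. Nearest to Prkag2 were Arid1a (r = 0.915), Erp44 (0.897) and Cadps (0.849). Nearest to Prkaa2 were Usp27x (0.908), Stau1 (0.891) and Myt1l (0.891), and to Prkaa1 Sdhc (0.879), Fgf1 (0.871) and Napa (0.859). Nearest to Prkab1 were Dzip1 (0.910), Zdbf2 (0.868) and Thap12 (0.856), to Prkab2 Rbm6 (0.867), Hmgn3 (0.862) and Fam98b (0.842), and to Prkag1 Rock1 (0.883), H2-D1 (0.877) and Nid1 (0.875).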

How the data were processed

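RNA was measured in 12 libraries, 3 in each of DN output, CTRL output, DN input and CTRL input, grouped by sample title. The authors deposited raw counts of reads per Ensembl gene, 1 file per library, without normalization. Per the submitters' processing notes, reads were handled with STAR 2.4.2a, HTSeq 0.6.1 and cutadapt 1.3 on build GRCm38, and per the labels all RNA was amplified (NuGEN Ovation V2). The annotation release and strand setting were not given in the sources used here. The 5 HTSeq classes of reads without a gene took 16.1 to 26.1% of reads and were left out. GENCODE M21 named 46005 of 46517 identifiers (98.9%).

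All genes were tested with edgeR 4.0.16 in R 4.3.3 (quasi-likelihood test, two-sided, TMM, filterByExpr with minimum count 10 and minimum total 15, Benjamini-Hochberg over all genes tested, threshold 0.05). All 6 subunit genes passed this filter in each of the 6 comparisons. Comparisons within DN, CTRL, outputs or inputs used their 6 libraries, and those over 6 pools and of both effects used all 12. SE are of fitted log2 fold changes. Levels are CPM with TMM factors of all 12 libraries, and levels of different genes were compared only per kb of merged exons or, as an alternative, of coding sequence. Isoform ratios are log2 ratios of counts, tested by exact permutation. The labels do not say that pools were separate experiments, so p values reach no further than these pools. The main edgeR fits held no pool term and took the libraries of a group as independent. The pool block and the paired permutation tests used differences within pools. The limit of 3 counts covers counting error only, since amplified reads are not independent molecules.

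Output and input of a number come from 1 pool and are paired. Their deviations from the group means correlated at 0.004, -0.002 and 0.015 in DN and at 0.096, 0.035 and 0.156 in CTRL. DN and CTRL pools share only a number (r from -0.013 to 0.006).

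The 6 genes, the pathway and marker lists, and the tests were chosen with earlier results of these data known. All 6 subunit genes are named in each comparison. Of pathway genes, those that passed are named, or else the 3 with the smallest p, and for each subunit gene up to 3 genes with the highest r. Alternatives were DESeq2 1.42.0, DESeq2 size factors, no filter, a replicate block, 1 fit of all 12 libraries, leaving out mitochondrial genes or each replicate, and other gene lengths. The tests were tried on simulated data first.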

Additional observations from a re-analysis of the deposited data

Results flagged for a closer look

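For Prkag2, the γ2 gene, output minus input differed in sign between DN and CTRL pools. It was above 0 in 3 of 3 DN pools and below 0 in 3 of 3 CTRL pools. Within CTRL the fitted log2 fold change was -0.61 (95% interval -1.88 to 0.67, edgeR). The DN pool with the largest value, pool 3, had 45 Prkag2 counts in its input. The difference of both effects was 2.07 on the log2 scale (SE 0.83). It was tested as an interaction over all genes and did not pass (unadjusted p = 0.0236, adjusted p = 0.738, edgeR). Without 1 pool the difference ranged from 1.64 to 2.398. In the same test 6.215% of all 15011 genes had an unadjusted p under 0.05 (edgeR). The share of all genes with such a split of signs between DN and CTRL pools was not computed.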

How the results depend on the processing

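The number of subunit genes called over 6 pools was 1, but 0 with DESeq2 size factors, 0 with the pool as a replicate block, and 0 to 2 without 1 pool. With no filter on low counts 1 was called in DN (Prkaa2), and with DESeq2 and no filter, added after seeing the data, 1 between DN and CTRL outputs (Prkag2). The ratio of Prkaa1 to Prkaa2 over 6 pools (-1.10) did not pass with the pairing of pools (adjusted p = 0.0938, exact paired permutation test). The ratio passed in a test that ignores the pairing (adjusted p = 0.0130, exact permutation test). Without 1 pool it ranged from -1.29 to -0.81, where 5 pools allow no p under 0.0625. The ratio of Prkab1 to Prkab2 changed sign without 1 pool, with a range from -1.47 to 1.58 between outputs and from -1.03 to 0.15 between inputs. The cause was not tested.

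Small estimates changed sign without 1 library: between DN and CTRL outputs Prkaa2 (-0.089 to 0.20), Prkab1 (-0.44 to 1.17) and Prkab2 (-0.39 to 0.34), and between inputs Prkaa1 (-0.12 to 0.74), Prkab1 (-1.03 to 0.10), Prkab2 (-0.18 to 0.35) and Prkag1 (-0.13 to 0.76). So did, without 1 pool, Prkab2 within DN (-0.035 to 0.94), Prkag1 within CTRL (-1.08 to 0.19) and Prkab2 in the difference of both effects (-0.48 to 0.51). With the replicate number as a block, which joins unrelated animals, Prkab1 was at -0.051 and Prkab2 at -0.033 between outputs. The block ended the call of Prkaa2 and changed no other call of a subunit gene.

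With coding length in place of exon length the Prkaa1 share was 22.7% in DN outputs, 28.7% in CTRL outputs and 36.3% in CTRL inputs, and the Prkab1 share 15.2% in DN inputs. In DN inputs Prkaa1 averaged 31.8 ± 18.1 and Prkaa2 30.5 ± 7.29 CPM per kb of coding sequence. Of pathway genes DESeq2 called 3 of 26 over 6 pools, 1 of 25 in DN and 2 of 26 in CTRL. The shares over all genes were 15.8%, 8.63% and 8.71%. The block called 1 pathway gene in CTRL, where it called 527 genes in all.

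Over all genes, edgeR and DESeq2 called 1513 and 2368 over 6 pools, 441 and 1125 in DN, 431 and 1172 in CTRL, 0 and 58 between outputs, 1 and 2 between inputs, and 0 and 91 in the difference of both effects. With no filter edgeR called 976 in DN, 903 in CTRL, 39 between inputs and 54 in the difference of both effects. One fit of 12 libraries called 673 in DN. Without 1 pool edgeR called 831 to 1226 over 6 pools, 115 to 148 in DN, 45 to 214 in CTRL and 0 to 8 between inputs. Prkag1 had as few as 8 counts in a library and Prkab1 as few as 9.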
